A study of Mus musculus with 4 samples.

Results

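Transcripts of Gpnmb, of the MiT/TFE transcription factors Tfeb, Tfe3 and Mitf, of the folliculin complex (Flcn, Fnip1, Fnip2), of the Rag GTPases Rragc and Rragd and of the lysosomal channel Mcoln1 were described in 4T1 cells, a mouse breast cancer line, labelled wild type or DHODH KO. These 10 genes were taken by name from a table of 16695 genes, and all 10 had a row. They were selected on KO against WT values of these same libraries, above all the size of the Gpnmb difference, and on their place in 1 pathway. Their values are therefore a description, the word "called" only labels a gene that passed the threshold of the fit over all genes, and no p-value is given for them. RNA-seq had been done on 2 wild type (WT) and 2 DHODH KO libraries of 4T1 cells, with no treatment named in the labels. DHODH is the mitochondrial enzyme that makes orotate for pyrimidine synthesis. Whether the KO cells are a clone, and whether replicates were grown as separate cultures, is not in the labels, so the spread behind every p-value may be technical.

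The MiT/TFE factors are basic helix-loop-helix leucine zipper proteins that switch on genes of lysosomes and autophagy through E-box sites. When amino acids are plentiful, Rag GTPase dimers on the lysosome, pairing RagA or RagB with RagC or RagD, bring TFEB and TFE3 to mTORC1, which phosphorylates them and keeps them in the cytosol. Folliculin with FNIP1 or FNIP2 is the GTPase activating protein of RagC and RagD, and its loss lets TFE3 and TFEB enter the nucleus. Gpnmb, a membrane glycoprotein, is widely used as a readout of MiT/TFE activity, and Flcn, Fnip2, Rragc, Rragd and Mcoln1 are known targets through which the factors feed back on the pathway.

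Promoter windows of the 4 genes below are shown because the results turn on Gpnmb, which has no CACGTG E-box near its start, and on Rragc, Mcoln1 and Fnip1, which do. Each is the 250 bases before the annotated start, read 5′ to 3′ on the gene's strand from RefSeq on GRCm38.p6, with CACGTG in capitals. All 4 genes lie on the plus strand, at chr6:49036268-49036517 for Gpnmb, chr4:123917183-123917432 for Rragc, chr8:3500269-3500518 for Mcoln1 and chr11:54437929-54438178 for Fnip1.
Gpnmb: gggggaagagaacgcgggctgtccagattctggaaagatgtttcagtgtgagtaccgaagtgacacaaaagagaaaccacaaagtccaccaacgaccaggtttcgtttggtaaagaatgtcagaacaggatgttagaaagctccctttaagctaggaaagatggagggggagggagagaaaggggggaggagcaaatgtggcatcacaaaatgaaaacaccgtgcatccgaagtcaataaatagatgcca
Rragc: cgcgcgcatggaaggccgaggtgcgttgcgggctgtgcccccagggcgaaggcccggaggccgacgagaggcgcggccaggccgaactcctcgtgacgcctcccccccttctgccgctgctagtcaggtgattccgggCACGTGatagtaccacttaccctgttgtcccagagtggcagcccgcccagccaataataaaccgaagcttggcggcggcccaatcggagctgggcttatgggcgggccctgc
Mcoln1: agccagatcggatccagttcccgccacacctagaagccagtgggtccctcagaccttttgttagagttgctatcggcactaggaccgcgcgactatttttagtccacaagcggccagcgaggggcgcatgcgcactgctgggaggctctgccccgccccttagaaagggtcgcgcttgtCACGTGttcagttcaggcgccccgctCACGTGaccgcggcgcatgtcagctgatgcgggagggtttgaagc
Fnip1: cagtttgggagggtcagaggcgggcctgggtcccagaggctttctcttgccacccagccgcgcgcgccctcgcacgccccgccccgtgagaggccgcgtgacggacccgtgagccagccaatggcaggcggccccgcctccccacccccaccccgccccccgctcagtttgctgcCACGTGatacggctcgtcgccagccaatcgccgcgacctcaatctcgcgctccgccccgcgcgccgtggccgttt

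Whole reads recovered from the steps of the deposited FPKM values (reads scaled to gene length and to library size) summed to 23556484 to 26103004 a library. These sums are not full library sizes, as they leave out 2032 genes whose reads were not recovered, among them the abundant Krt8 and Krt18. Dhodh was 10.9 and 10.3 FPKM in WT and 9.67 and 8.69 FPKM in KO, and such gene-level values are blind to a small edit. All 6 epithelial markers on a list for the line reached 1 FPKM, with sums of 1957 and 1937 FPKM in WT and 1940 and 1933 FPKM in KO. Of them, Epcam and Krt19 were called higher in KO, Krt8, Krt18 and Cdh1 lower, and Krt7 was not called. KO replicate 2 stood apart, as 9 heart muscle markers (a list of 10 without Tnnt2, which was high in all libraries) summed to 86.7 FPKM there and to at most 0.295 FPKM elsewhere. Differences between genotypes are log2 fold changes, KO minus WT, ± SE on the scale of log2(FPKM + 1), which understates low genes. The threshold for a call was an adjusted p (Benjamini-Hochberg) of 0.05 in limma-trend over the 10170 genes with a mean of at least 1 FPKM.

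Of the 10 genes, 8 reached that mean, and 7 of them were called higher in KO, none lower. Over all genes tested, 35.6% were called higher and 29.1% lower, so calls were common in this comparison. With median-of-ratios scaling in place of FPKM as deposited, 3180 genes were called higher and 3375 lower, against 3618 and 2958. Both KO libraries lay above both WT libraries in each of the 8, as in 45.6% of all genes tested. Since the genes were selected on this comparison, nothing is read from these counts. The median log2 fold change was 0.67 over the 8 genes and 0.04 over all genes tested. Tfe3 was tested and not called, and Mitf and Rragd lay below the filter. In these bulk samples, fewer cells that express a gene and less RNA per cell cannot be told apart.

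**Figure D1:**
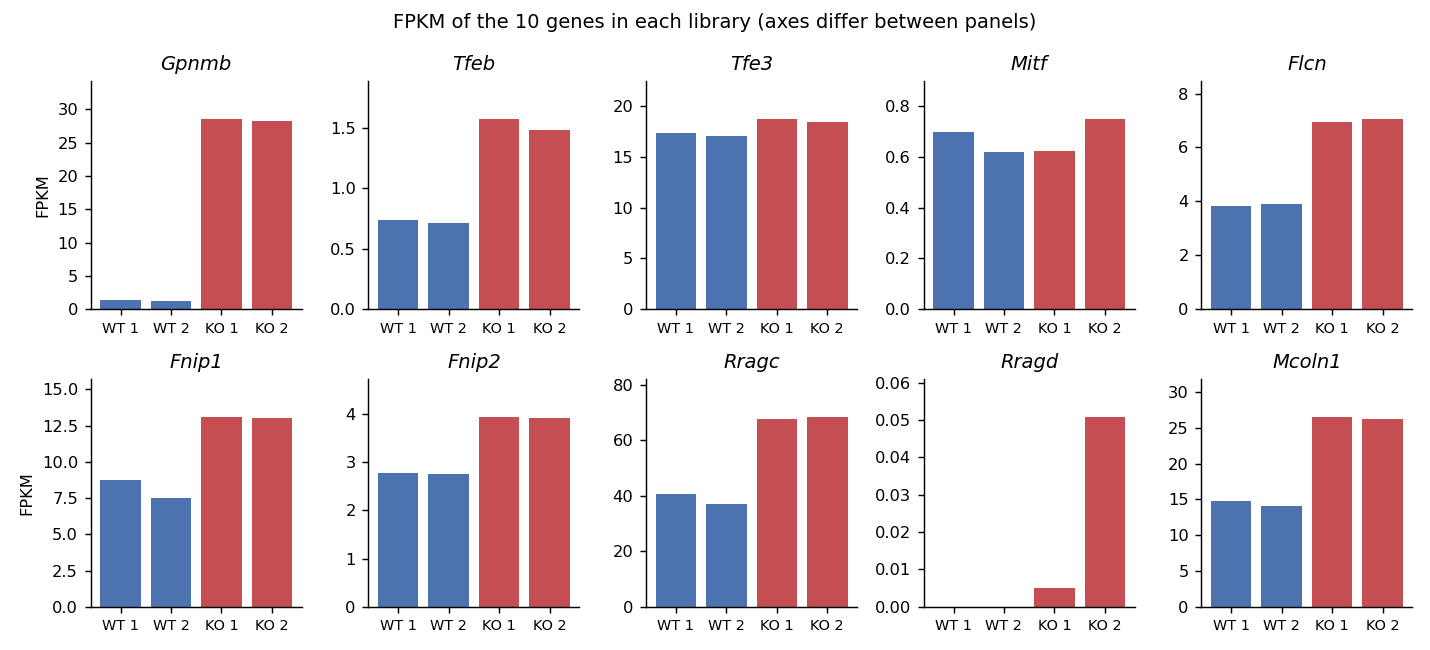
Bars give the FPKM (vertical axis, from 0, differing between panels) of each of the 10 genes in WT (blue) and DHODH KO (red) libraries 1 and 2. Gpnmb stands at 1.36 and 1.16 FPKM in WT and 28.5 and 28.2 FPKM in KO, while the Mitf libraries overlap between genotypes and Rragd never passes 0.0509 FPKM.

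Gpnmb measured 1.36 and 1.16 FPKM in WT replicates 1 and 2, from 184 and 153 reads. It measured 28.5 and 28.2 FPKM in KO replicates 1 and 2, from 4111 and 4065 reads. Both KO libraries were far above both WT libraries and nearly equal to each other. Without KO replicate 2, the library with heart muscle transcripts, the log2 fold change was 3.71. The mean rose from 1.26 ± 0.146 to 28.4 ± 0.242 FPKM (SD, n = 2 each), 22.5-fold, with a log2 fold change of 3.70 ± 0.070, rank 1 of the 10170 genes. In WT its FPKM was above that of Tfeb and below those of the other tested genes of the group, and in KO it was second to Rragc. The WT libraries differed by 16.4% of their mean, beside a counting error of 10.9%, and the KO libraries by 1.21%, beside 2.21%.

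Since Gpnmb is also a gene of melanocytes and of macrophages and osteoclasts, markers of these cells were read beside it. Of 11 melanocyte markers only 4 had a row, none reached 1 FPKM in any library, and they summed to 0.0545 to 0.286 FPKM in WT and 0.0755 to 0.159 FPKM in KO. Pmel, the melanosome gene that is the closest paralogue of Gpnmb, was at most 0.130 FPKM. Of 17 macrophage and osteoclast markers, 16 had a row and 3 reached 1 FPKM, Acp5, Cd14 and Lyz2. The list summed to 23.9 to 25.2 FPKM in WT and 33.6 to 35.8 FPKM in KO, most of it Acp5, which measured 17.6 and 17.5 FPKM in WT and 27.7 and 26.0 FPKM in KO. Cd14 went the other way, from 6.90 and 5.74 FPKM in WT to 5.08 and 4.15 FPKM in KO. Acp5 was called higher and Cd14 lower. The 14 markers other than Acp5 and Cd14 summed to 0.714 and 0.676 FPKM in WT and to 0.804 and 5.70 FPKM in KO, so KO replicate 2 was the high library. Adgre1, Csf1r and Ptprc, picked from the list, were near 0, with a sum of 0.0984 to 0.222 FPKM over the 4 libraries, highest in KO replicate 2. C1qa and C1qb of the list were also highest there, at 0.588 and 0.529 FPKM. Lyz2 reached 3.51 FPKM in KO replicate 2 and at most 0.226 FPKM elsewhere. The part of such cells in the Gpnmb values was not tested.

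The genes with the profile most like that of Gpnmb over the 4 libraries, by Euclidean distance of centred log2(FPKM + 1) values, were Cxcl2, Icam1, Ddit3, Ephx1 and Ccl20. Cxcl2, a neutrophil-attracting chemokine gene, was nearest at a distance of 0.145 log2 units, and Icam1, an adhesion molecule gene, followed at 0.603. Ddit3, the gene of the stress factor CHOP, Ephx1, an epoxide hydrolase gene, and the chemokine gene Ccl20 lay at 1.10 to 1.12. With 4 libraries in 2 groups this likeness rests almost wholly on the size of the genotype difference. None of these 5 is on the CLEAR list of lysosome genes described below.

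Of the transcription factors, Tfeb was scarce and called higher, Tfe3 was abundant and not called, and Mitf was scarce and not tested. Tfeb, the factor best known for lysosome biogenesis, measured 0.742 and 0.711 FPKM in WT and 1.58 and 1.48 FPKM in KO. These values rest on 99 and 93 reads in WT and on 224 and 211 in KO, and exact Poisson 95% intervals of the level ran from 0.574 to 0.904 FPKM over the WT libraries and from 1.29 to 1.80 FPKM over the KO libraries (counting error only). The genotypes did not overlap, and the ratio of means was 2.10 (log2 fold change 0.55 ± 0.10). Tfeb had a mean of 1.13 FPKM over the 4 libraries and so passed the filter through its KO level. Without KO replicate 1 it fell below the filter and was not tested.

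Tfe3, a sister factor and the most abundant of the MiT/TFE factors, measured 17.4 and 17.1 FPKM in WT and 18.7 and 18.4 FPKM in KO. The genotypes did not overlap, but the difference was small at 0.10 ± 0.047 and was not called. Mitf, the melanocyte factor, measured 0.700 and 0.620 FPKM in WT and 0.625 and 0.750 FPKM in KO, and the genotypes overlapped. The Mitf means were 0.660 ± 0.057 (WT) and 0.688 ± 0.089 FPKM (KO), from 230 to 303 reads a library. Gene-level values cannot tell the Mitf promoters or isoforms apart. The mean of Mitf over the 4 libraries, 0.674 FPKM, was the nearest below the filter, and with the filter at 0.5 FPKM its log2 fold change was 0.02 ± 0.11, not called.

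Tfec, the remaining member of the MiT/TFE family, was listed at 0 in 3 libraries and at 0.0179 FPKM in KO replicate 2. Summed over the family, FPKM was 18.8 and 18.4 in WT and 20.9 and 20.7 in KO. Tfe3 held 92.3% and 92.8% of that sum in WT and 89.5% and 89.1% in KO. Tfeb held 3.94% and 3.86% in WT and 7.53% and 7.17% in KO, so Tfe3 exceeded Tfeb 23.4-fold and 24.0-fold in WT and 11.9-fold and 12.4-fold in KO. Per length of gene, Tfe3 thus had the most transcripts of the family in every library.

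**Figure D2:**
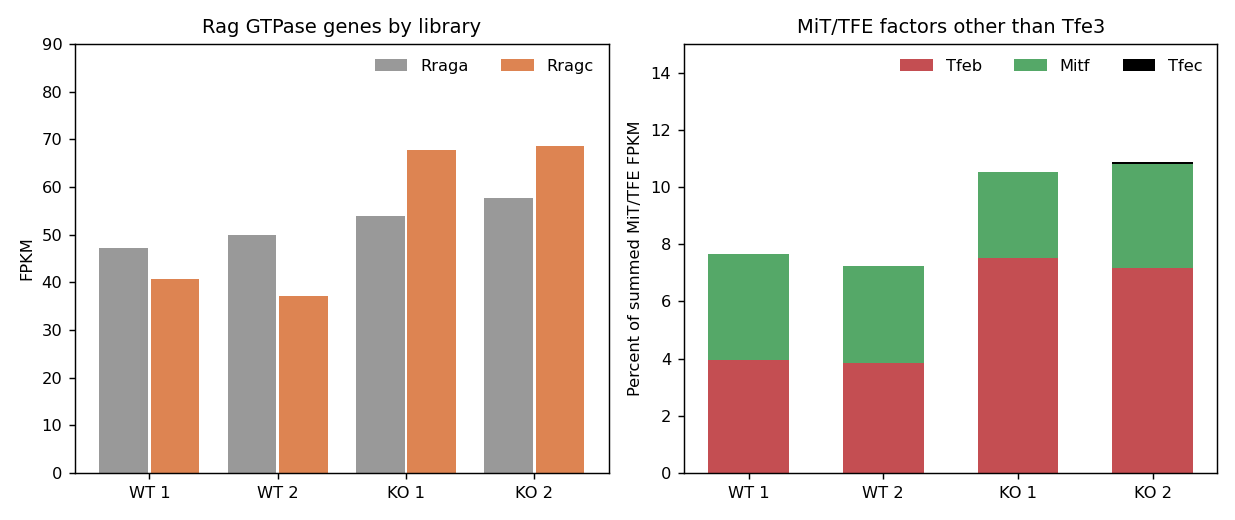
Left, FPKM of Rraga (grey) and Rragc (orange) in each library; Rragc lies below Rraga in both WT libraries and above it in both KO libraries. Right, percent of the summed FPKM of Tfeb, Tfe3, Mitf and Tfec held by Tfeb, Mitf and Tfec, with Tfe3 as the remainder not drawn; the Tfeb share is 3.94% and 3.86% in WT and 7.53% and 7.17% in KO.

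All 3 genes of the folliculin complex were higher in KO and were called. Flcn, the gene of the catalytic partner, measured 3.84 and 3.89 FPKM in WT and 6.95 and 7.05 FPKM in KO, 1.81-fold (0.72 ± 0.066). Fnip1 measured 8.75 and 7.49 FPKM in WT and 13.1 and 13.0 FPKM in KO, 1.61-fold (0.63 ± 0.076). Fnip2 measured 2.78 and 2.76 FPKM in WT and 3.95 and 3.91 FPKM in KO, 1.42-fold (0.39 ± 0.076). For each gene both KO libraries lay above both WT libraries. The WT libraries of Fnip1 stood apart by 15.6% of their mean, beside a counting error of 3.12%, and its log2 fold change was 0.73 without WT replicate 1 and 0.53 without WT replicate 2.

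Folliculin binds FNIP1 or FNIP2, and the balance of these partners was read within each library. Fnip1 over Fnip2 was 3.15 and 2.71 in WT and 3.33 and 3.33 in KO. The sum of both over Flcn was 3.004 and 2.64 in WT and 2.45 and 2.40 in KO. The spread of these ratios in WT, set by Fnip1, was of the order of the difference between genotypes. Levels across genes are uncertain for Flcn, Fnip2 and Mitf, since the value of 1 read implied a gene length of 2.53, 2.79 and 2.0 times their merged exons in GENCODE vM21, relative to the median gene. For the other 7 genes that ratio was 0.841 to 1.16.

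Of the Rag genes, Rragc was abundant and called higher, and Rragd was almost absent. Rragc, whose protein RagC is the substrate of folliculin, measured 40.6 and 37.1 FPKM in WT and 67.8 and 68.5 FPKM in KO. Both KO libraries exceeded both WT libraries, 1.75-fold in the means (0.80 ± 0.050). Rragd, the gene of the alternative partner RagD, had 0 reads in both WT libraries, which allows up to 0.0163 and 0.0166 FPKM (3 reads a library, counting error only). It had 1 read in KO replicate 1 and 10 reads in KO replicate 2, at 0.00510 and 0.0509 FPKM. The level of Rragd passed 3 reads only in KO replicate 2, the library that also held heart muscle transcripts, whose part in it was not tested, and no fold is given.

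The partners of RagC and RagD were read from the list of paralogues. Rraga, the gene of RagA, measured 47.3 and 49.9 FPKM in WT and 53.8 and 57.6 FPKM in KO. Its log2 fold change was 0.19 ± 0.049 (limma-trend adjusted p = 0.0108, and 0.0687 without WT replicate 1 or 0.0599 with no filter). Rragb, the gene of RagB, was at 0.00540 FPKM in WT replicate 2 and listed at 0 elsewhere. The ratio of Rragc to Rraga was 0.860 and 0.743 in WT and 1.26 and 1.19 in KO. The order of the pair was thus reversed between genotypes, with Rragc the lower in WT and the higher in KO.

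Mcoln1, the gene of the lysosomal calcium channel TRPML1 that acts upstream of calcineurin and TFEB, measured 14.7 and 14.1 FPKM in WT. In KO it measured 26.6 and 26.2 FPKM, 1.83-fold (0.83 ± 0.048), and the genotypes did not overlap. Its paralogue Mcoln3, below the filter, had 4 and 6 reads in WT and 59 and 70 reads in KO, or 0.0522 and 0.0799 FPKM against 0.722 and 0.856 FPKM. Both KO libraries of Mcoln3 were thus above both WT libraries, 12.0-fold in the means, from few reads in WT and without a test. Mcoln2 was at 0.00589 FPKM in KO replicate 2 and listed at 0 elsewhere.

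**Figure D3:**
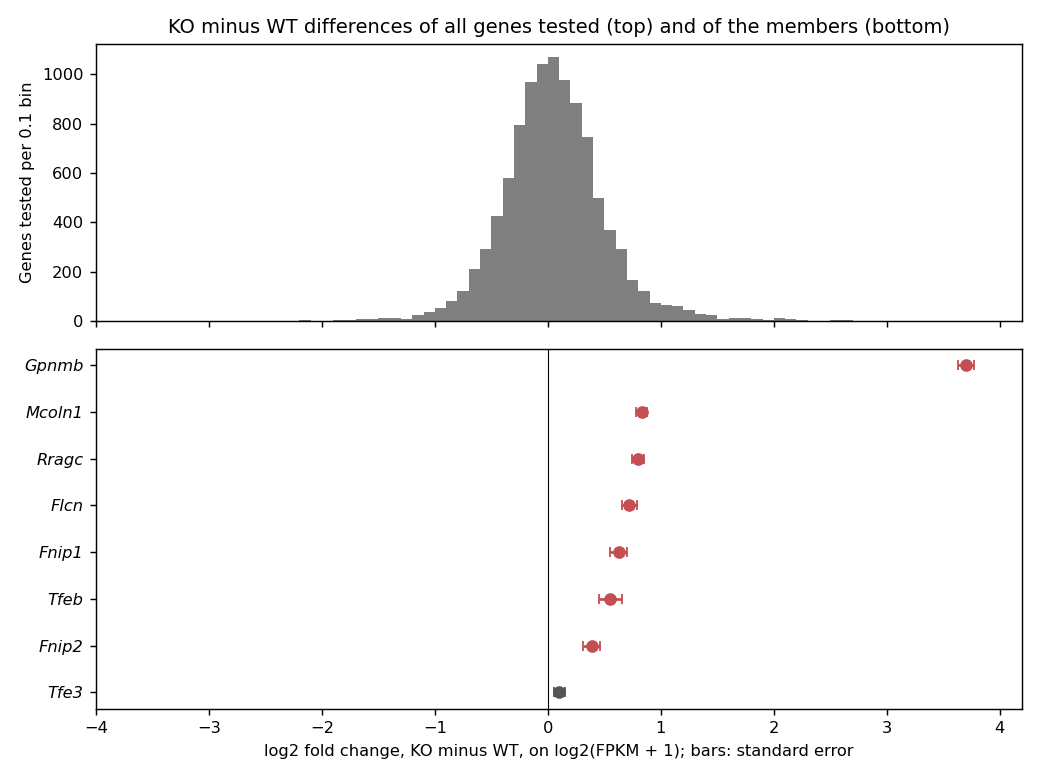
Top, the number of tested genes per 0.1 of log2 fold change (KO minus WT on log2(FPKM + 1)); bottom, the 8 tested genes of the group on the same axis, with bars for the standard error, red where called and dark grey where not. Gpnmb lies at 3.70, the 6 other called genes between 0.39 and 0.83, and Tfe3 at 0.10.

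Apart from Gpnmb, the 6 called genes lay within a narrow range, from 1.42-fold for Fnip2 to 2.10-fold for Tfeb in FPKM. In WT the order of FPKM was Rragc, Tfe3, Mcoln1, Fnip1, Flcn, Fnip2, Gpnmb, Tfeb, Mitf and Rragd. Tfeb and Mitf lay close together there in FPKM, at 0.727 ± 0.022 and 0.660 ± 0.057, and their counting intervals overlapped. In KO the order was Rragc, Gpnmb, Mcoln1, Tfe3, Fnip1, Flcn, Fnip2, Tfeb, Mitf and Rragd. The places of Flcn, Fnip2 and Mitf in both orders are uncertain, and so is the closeness of Mitf to Tfeb. Their FPKM implied gene lengths of 2.53 (Flcn), 2.79 (Fnip2) and 2.0 (Mitf) times the merged exons. Gpnmb over Mcoln1 was 0.0925 and 0.0819 in WT and 1.07 and 1.08 in KO. In the 8 tested genes, replicates differed by 0.778% to 6.06% of the mean in KO and by 0.422% to 16.4% in WT. Below the filter, Mitf differed by 18.3% in KO and 12.2% in WT, and Rragd, with 1 and 10 reads, by 164% in KO.

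C9orf72 and Smcr8 encode proteins that form a complex of the same fold, with Wdr41 as its anchor. C9orf72 rose from 9.14 ± 0.081 to 16.0 ± 0.723 FPKM (0.74 ± 0.057, limma-trend adjusted p = 3.9e-05). Smcr8 rose by less (0.26 ± 0.069, limma-trend adjusted p = 0.0140), and its call was lost without WT replicate 1 (adjusted p = 0.0816), without KO replicate 1 (0.0657) and with no filter (0.0678). Wdr41 fell from 2.88 ± 0.098 to 2.02 ± 0.067 FPKM (-0.36 ± 0.085, limma-trend adjusted p = 0.00778).

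The Ragulator complex is the lysosomal platform that holds the Rags. On the list of Ragulator subunits, Rraga, Rragb and the arginine sensor gene Slc38a9, 6 of 7 tested genes (85.7%) were called higher, beside 35.6% of all genes tested, and none lower, with a median of 0.21. Of these 7, 5 were called higher when either WT library was left out, and 1 when tested against 0.5 on the log2 scale. Lamtor3, a Ragulator subunit gene, rose from 33.0 and 35.1 FPKM in WT to 59.6 and 53.9 FPKM in KO (0.72 ± 0.058, limma-trend adjusted p = 4.9e-05). Lamtor5 rose by 0.37 ± 0.041 and Lamtor2 by 0.21 ± 0.045 on the log2 scale. Slc38a9 rose from 0.972 and 0.906 FPKM in WT to 2.05 and 1.73 FPKM in KO (limma-trend adjusted p = 0.00240), and passed the filter through its KO level. Lamtor4, named after its value was seen, was the tested gene not called, at 0.05 ± 0.053.

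GATOR, KICSTOR and the cytosolic amino acid sensors act upstream of the Rags. Of 17 tested genes of this list, 5 (29.4%) were called higher and 3 (17.6%) lower, beside 35.6% and 29.1% of all genes, with a median of -0.06. Sesn3, a sestrin gene, rose from 9.01 ± 0.211 to 16.7 ± 0.236 FPKM (0.82 ± 0.053, limma-trend adjusted p = 2.0e-05). Bmt2, the gene of an S-adenosylmethionine sensor, rose by 0.56 ± 0.073. The KICSTOR gene Itfg2 fell from 5.61 ± 0.097 to 2.76 ± 0.235 FPKM (-0.81 ± 0.080, limma-trend adjusted p = 1.2e-04), and Nprl3, of the Rag-inhibiting GATOR1 complex, fell by 0.38 ± 0.058.

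Of 9 tested genes of mTORC1, Rheb and the TSC complex, 2 (22.2%) were called higher and 1 (11.1%) lower, beside 35.6% and 29.1% of all genes (median -0.08). Rheb, the GTPase gene that activates mTORC1, rose by 0.33 ± 0.047 and the TSC gene Tsc1 by 0.44 ± 0.070 (limma-trend adjusted p = 6.6e-04 and 0.00118). Akt1s1, the gene of PRAS40, fell by 0.15 ± 0.052. That call was lost with no filter (limma-trend adjusted p = 0.0610) and with FPKM rescaled to TPM (limma-trend adjusted p = 0.0527). Leaving out any 1 library also lost it, at log2 fold changes from -0.12 to -0.18. Of 5 tested AMPK subunit genes 2 were called higher, beside 35.6% of all genes, and none lower. Prkab2 rose by 0.70 ± 0.090, and Prkaa1 rose by 0.16 ± 0.054. The Prkaa1 call was lost with no filter (limma-trend adjusted p = 0.0790), median-of-ratios scaling (limma-trend adjusted p = 0.107) and limma without trend (adjusted p = 0.0535). It was also lost without WT replicate 1, WT replicate 2 or KO replicate 1, at log2 fold changes of 0.19, 0.13 and 0.12.

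Of 20 tested genes of proteins that modify, hold or export TFEB and TFE3, 7 (35%) were called higher and 9 (45%) lower, beside 35.6% and 29.1% of all genes (median 0.04). Mapk3, the ERK1 gene, rose from 44.5 ± 0.046 to 78.5 ± 4.53 FPKM (0.80 ± 0.047), and Ppp3ca, a catalytic subunit gene of calcineurin, by 0.59 ± 0.053. Sfn, the gene of 14-3-3 sigma, fell from 38.3 ± 0.187 to 21.3 ± 1.35 FPKM (-0.82 ± 0.053), and Ywhaq, that of 14-3-3 theta, fell by 0.51 ± 0.039. Adjusted p-values of these 4 genes from limma-trend ran from 1.3e-05 to 8.3e-05. The other calcineurin catalytic subunit genes on the list went against Ppp3ca. Ppp3cb (-0.57 ± 0.061) and Ppp3cc (-0.29 ± 0.087), singled out for their direction, were called lower. Of the 4 genes listed as surface partners or sheddase of Gpnmb, Adam10, the sheddase gene, rose by 0.63 ± 0.051 and Sdc4, the syndecan-4 gene, by 0.25 ± 0.039, while the adhesion receptor genes Itgb1 and Cd44 fell by 0.23 ± 0.035 and 0.22 ± 0.036 (limma-trend adjusted p from 5.0e-05 to 0.00146).

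Of 32 tested genes of the CLEAR network, the lysosome and autophagy genes known as TFEB targets and listed without the 10 genes above, 25 (78.1%) were called higher and 2 (6.25%) lower, beside 35.6% and 29.1% of all genes, with a median of 0.51. This list was chosen with the lysosomal results known and is not independent evidence of its direction. Hexa, a lysosomal hydrolase gene, rose from 6.03 ± 0.574 to 40.8 ± 0.102 FPKM. Ctsd, the cathepsin D gene, rose from 149 ± 3.05 to 332 ± 1.93 FPKM, and Psap, the saposin precursor gene, by 0.96 ± 0.033. The adjusted p-values of these 3 genes from limma-trend ran from 6.6e-07 to 1.8e-06. The genes called lower were Gusb, of beta-glucuronidase, and Wipi1, of autophagosome formation, singled out for their direction. In the authors' annotation column, 70 of 103 tested genes of the pathway Lysosome were called higher and 10 lower, and 46 of 118 of mTOR signaling were called higher and 23 lower, both without the 10 genes, beside the 35.6% and 29.1% of all genes.

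**Figure D4:**
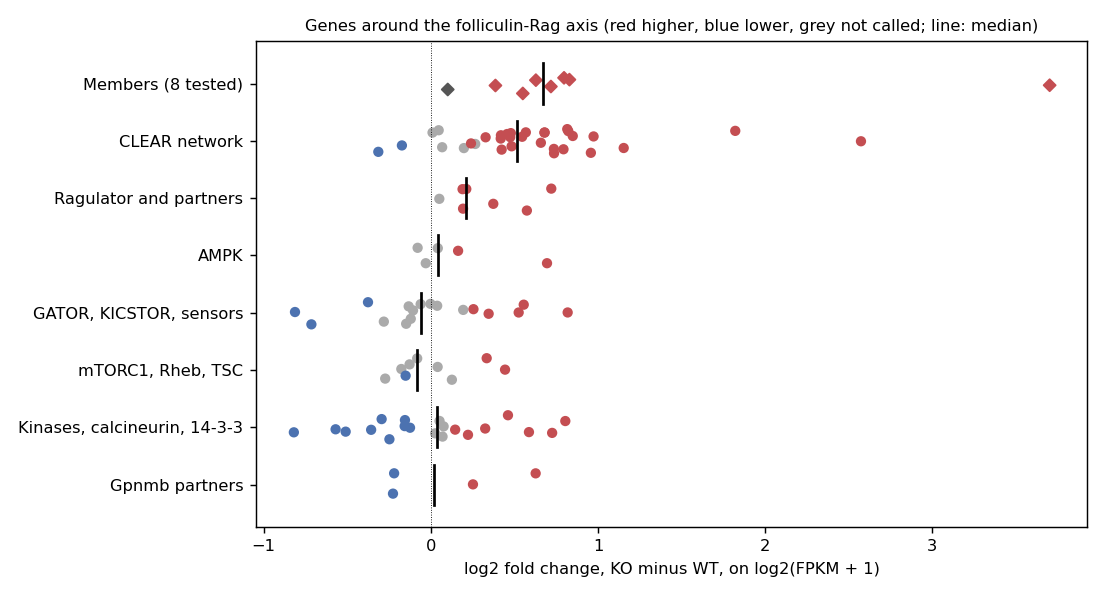
Each point is 1 tested gene at its log2 fold change (KO minus WT on log2(FPKM + 1)), in rows for the 8 tested genes of the group (diamonds) and for 7 lists of genes around them; red was called higher, blue lower, grey not called, and the black line is the row's median. The CLEAR row has its median at 0.51 and the GATOR row at -0.06.

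E-box letters were present in the windows of some of these genes and not of others. All 10 genes had a RefSeq window (250 bases before to 50 after the start), 15 windows in all because Mitf, Tfeb and Tfe3 have several starts. CACGTG, which reads the same on both strands, was found in the windows of Rragc, 112 bases before the start, Fnip1, 75 bases before, and Mcoln1, 71 and 45 bases before. These are the capitals in the sequences printed above. The longer form TCACGTG, searched on both strands and always overlapping CACGTG, was present in the same 3 windows, and the full palindrome TCACGTGA in that of Mcoln1 alone.

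No window of Gpnmb, Tfeb, Tfe3, Mitf, Flcn, Fnip2 or Rragd held CACGTG, and none of the 15 windows held CATGTG on either strand, the letters at the core of the M-box. Of all 32851 windows, 7.15% held CACGTG, 3.77% TCACGTG, 0.974% TCACGTGA and 14.2% CATGTG. Of the CLEAR genes with a window, 13 of 26 held CACGTG, against 12.4% of the tested genes that have one. The CLEAR network was first defined by such E-box letters in promoters, so the larger share is not an independent result. How far that definition accounts for the share in the list used here was not tested. Of 1021 tested genes with CACGTG, the 10 genes left out, 39.5% were called higher, and of 7237 without it 35.6%, with median log2 fold changes of 0.08 and 0.04. A match is a description of the letters, and the absence of one says nothing of sites elsewhere.

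**Figure D5:**
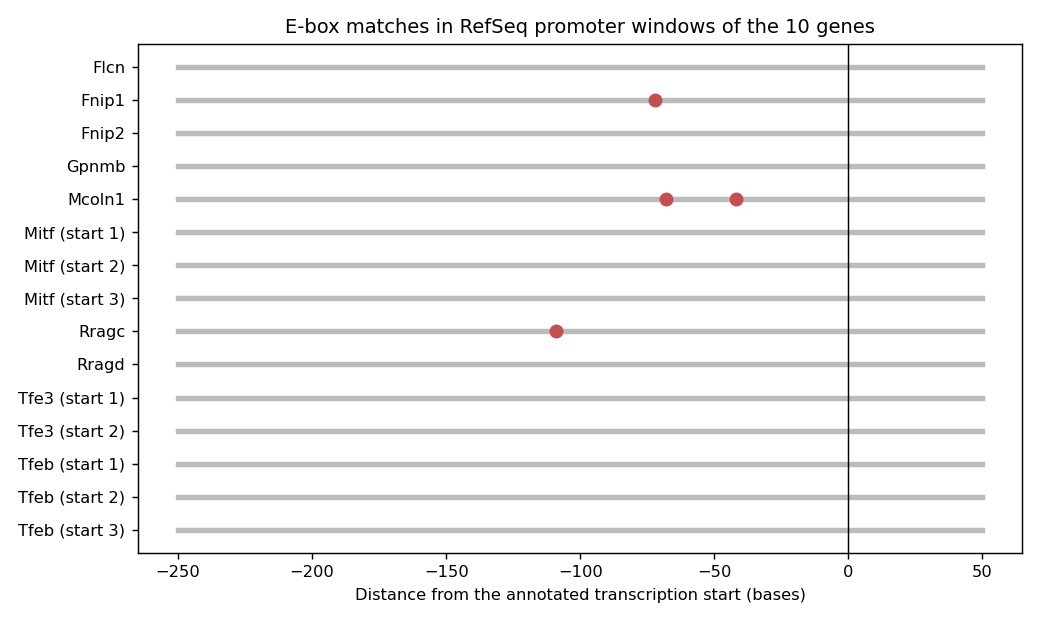
Grey lines are the RefSeq promoter windows of the 10 genes, 1 for each annotated start, along the distance from the start in bases, and red points are CACGTG matches. Rragc and Fnip1 have 1 match each, Mcoln1 has 2, and the other windows have none.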

How the data were processed

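Total RNA of 4T1 cells was made into Illumina libraries, per the labels' protocols. The values are FPKM as deposited by the authors, with fastp and HTSeq on the build GRCm39, per the submitters' processing notes. Not given in the sources used here are versions, aligner, annotation and strand setting, so reads of overlapping or antisense genes could be mixed. Columns were matched to samples by title.

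Whole reads were recovered from the FPKM steps (tolerance 0.002 of a read, up to 20000 reads) for 98.2% of the 14934 genes above 0 in at least 2 libraries, including all 10 described. A gene above 0 in 1 library has no step to compare and was given no reads. Genes with a mean of at least 1 FPKM were tested with limma-trend (limma 3.58.1, R 4.3.3) on log2(FPKM + 1), two-sided, without covariates, the Benjamini-Hochberg adjustment running over 10170 genes. The fit was tested on simulated data. Python 3.11.15, pandas 2.3.3 and Matplotlib 3.10.9 served for tables and figures. The genes and lists were chosen with earlier results of these data known. Named beside the 10 genes were all listed paralogues, the called genes of lowest adjusted p (at most 4 a list), and the 5 most like Gpnmb. A gene that this rule takes is left out here. The same likeness was not computed for Rragd, which was not tested. The authors' pathways and the motifs were added after the data were seen. Listed symbols were matched by name or RefSeq synonym. Promoters are from RefSeq on GRCm38.p6, used for sequence only.

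Alternatives were other pseudocounts, filters, scalings, variance models, a fold threshold, voom on recovered reads, a replicate block and leaving out each library. Those planned for counts were not run.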

Additional observations from a re-analysis of the deposited data

How the results depend on the processing

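With 2 libraries a group, the spread is estimated from few values and shared among genes by limma. Of 15 alternatives, only the fold threshold moved the counts over all genes, the 10 genes and the lists together by more than 1.5 times. Testing against 0.5 on the log2 scale, in either direction, left 3 of the 10 genes called higher (Gpnmb, Mcoln1 and Rragc), 569 genes higher and 319 lower over all tested, and 17 and 2 genes of the lists. Under the other alternatives 7 of the 10 genes were called higher, or 6 without DHODH KO replicate 1, where Tfeb fell below the filter, and none was called lower or changed sign. Leaving out 1 library gave 3165 to 3391 genes higher and 2490 to 2863 lower over all tested, 49 to 51 and 16 to 19 genes of the lists, against 51 and 18 with all libraries, and 6 to 7 of the 10 genes. With median-of-ratios scaling 3180 genes were higher and 3375 lower over all tested (3618 and 2958 in the report), and the median of all genes moved from 0.04 to -0.01. Tfe3 was called under none of the alternatives, its log2 fold change running from 0.05 with median-of-ratios scaling to 0.11, and that of Gpnmb from 3.64 to 4.47. On voom, which does not add 1 FPKM, Tfeb was at 1.05 and Gpnmb at 4.47. Voom was run only on genes with recovered reads. Among those not tested there were Itgb1 of the Gpnmb partners, called lower in the report, and Ctsd and Psap of the CLEAR list, called higher. Of 300 counts of single lists, 263 stayed within 1.5 times, and 18 of the 37 that moved did so under the fold threshold. Apart from it, the GATOR list had 5 genes lower with median-of-ratios scaling or the block and 6 with voom (3 in the report), the mTORC1 list 0 to 3 lower (1 in the report), the AMPK list 1 higher in 6 settings (2 in the report), the paralogues 1 higher without WT replicate 1 (3 in the report) and the Gpnmb partners 1 lower with voom (2 in the report).

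Whether same-numbered libraries were paired is not in the labels. The correlation of their deviations from the group means was 0.0463 over genes, which with 2 libraries a group cannot settle it. With the replicate block, 3681 genes were higher and 3001 lower, 7 of the 10 genes were called higher, and 52 and 21 list genes were called.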
